A study of Homo sapiens with 2 samples.

Results

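Of the 10 Eph receptor and ephrin genes chosen by symbol, 8 were found among the 13137 genes of the deposited table: the receptors EPHA2, EPHA4, EPHB2, EPHB3 and EPHB4 and the ephrins EFNA1, EFNB1 and EFNB2. EPHA1 and EPHB6 were not analysed here. The genes had been chosen with their tags in these same libraries known, so that their differences are given as descriptions and without a test. A further 5 genes of the family, EPHA3, EFNA3, EFNA4, EFNA5 and EFNB3, were also listed and are given beside them.

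Eph receptors are the largest family of receptor tyrosine kinases. Their ligands, the ephrins, are themselves held on the surface of the neighbouring cell, the A type by a lipid anchor and the B type by a transmembrane segment with a cytoplasmic tail, so that contact between cells signals into both. EphA receptors bind mainly ephrin-As and EphB receptors mainly ephrin-Bs, while EPHA4 binds ligands of both types. The system is best known for steering axons and for keeping cell populations apart, and EPHA2 is abundant in many carcinomas, lung adenocarcinoma among them.

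A549 is a human lung adenocarcinoma cell line. Both groups were polyclonal A549 cells that carried a doxycycline-inducible (H1TetO) hairpin and were selected with puromycin, and both received doxycycline for 4 days. The hairpin targeted SOX2 in one group (shRNA-SOX2) and was a scrambled sequence in the other (shRNA-Con), with 1 library for each. Digital gene expression counts short sequence tags from captured mRNA, so that a tag count does not grow with the length of the mRNA. The columns are headed S1 and SC, and SC was read as shRNA-Con and S1 as shRNA-SOX2.

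The gene tags numbered 2093816 in the shRNA-SOX2-labelled library and 2304184 in shRNA-Con. With 1 library per condition no difference has a replicate check, and all intervals below are 95% intervals that cover counting error only. How many of all genes had intervals that did not overlap between the libraries is not given here. A gene whose intervals did not overlap is therefore not marked out from the other genes. SOX2 itself had 23 tags in the shRNA-SOX2-labelled library and 16 in shRNA-Con, a ratio of 1.58 (0.80 to 3.20), so that the targeted mRNA was not lower in the library carrying its name. All 6 epithelial marker genes were detected, with 7702 tags of KRT8 in shRNA-Con and 12729 in the shRNA-SOX2-labelled library. KRT19 was likewise higher there, at 127 tags beside 35, while KRT7 (1606 beside 3899) and KRT18 (7887 beside 10318) were lower. Of the lung lineage markers NAPSA alone was measured here, with 6 tags in the shRNA-SOX2-labelled library and 0 in shRNA-Con. EPCAM had 4 and 8 tags and CDH1 50 and 50, in the order shRNA-SOX2-labelled and shRNA-Con. In the same order the summed tags were 21920 and 14810 for 3 aldo-keto reductase and aldehyde dehydrogenase genes typical of A549 (AKR1B10 lower, ALDH1A1 and ALDH3A1 higher), 52 and 46 for 2 fibroblast markers, 12 and 13 for 2 leukocyte markers and 0 and 3 for PECAM1, the endothelial marker measured.

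EPHA2, the most abundant receptor, was 1.61-fold lower and EPHB2 2.21-fold lower in the shRNA-SOX2-labelled library. EPHA4 had 46 tags there and 0 in shRNA-Con. Of the ephrins, EFNA1 was 2.48-fold higher and EFNB1 had 15 tags against 0. Of the 6 members with at least 20 tags in both libraries together, 2 (EPHA4 and EFNA1) were higher by at least 2-fold and 1 (EPHB2) was lower by at least 2-fold. Over the 10045 genes of the table with that many tags, 10.4% were higher and 13.0% lower by at least 2-fold. Since these libraries chose the members, nothing is read from the comparison of these shares. The median log2 ratio of the 6 members was 0.16, and that of all 10045 genes was -0.10.

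**Figure D1:**
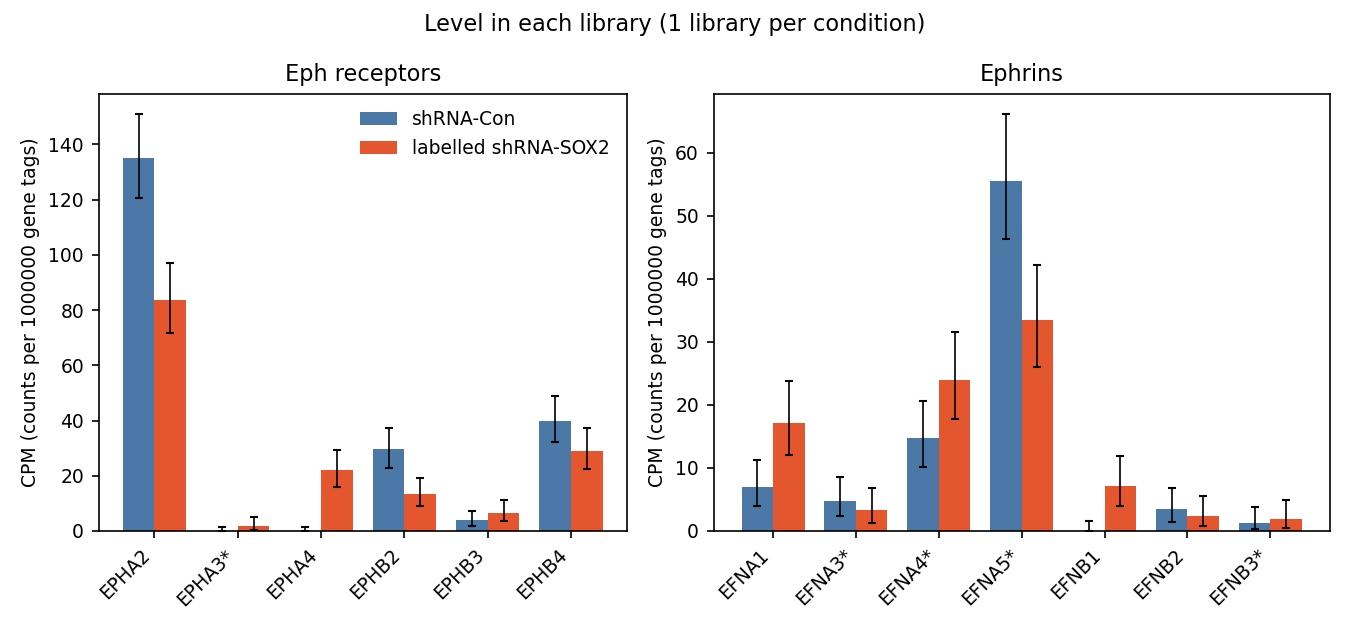
CPM, the counts per 1000000 gene tags (y axis), of each Eph receptor (left) and ephrin (right) in shRNA-Con (blue) and in the shRNA-SOX2-labelled library (red). Bars start at 0 and have a scale of their own in each panel, whiskers are exact 95% Poisson intervals, and * marks family genes that are not among the chosen ones. EPHA2 was the highest bar in both libraries, and EPHA4, EFNB1 and EPHA3* had no bar in shRNA-Con.

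EPHA2, the receptor of ephrin-A1 on epithelial cells, had the most tags of the family in both libraries. It had 311 tags in shRNA-Con, or 135 CPM (counts per 1000000 gene tags, 120 to 151), and 175 in the shRNA-SOX2-labelled library, or 83.6 CPM (71.7 to 96.9). The intervals of the libraries did not overlap. The log2 ratio was -0.69, with an interval of the ratio from 0.51 to 0.75, and 22.2% of the 10045 genes had a lower log2 ratio. An antisense gene is annotated on the opposite strand of EPHA2, and whether the tag counting used the strand is not given in the sources used here, so that tags of the antisense gene could be among those of EPHA2.

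EPHA4, the receptor with the broadest choice of ephrins and a guidance receptor in the nervous system, had 46 tags in the shRNA-SOX2-labelled library, or 22.0 CPM (16.1 to 29.3). It had 0 tags in shRNA-Con. Taking a limit of 3 tags (1.30 CPM) in place of the 0, EPHA4 was 16.9-fold higher, a log2 ratio of 4.08. The counting interval of the ratio began at 13.2 and had no upper end. It took the 0 as exact and did not use the limit. No gene of the table has exactly 1 tag in either library, and the fewest above 0 is 2, so that a listed 0 may hide single tags. With the limit set at 5 tags, the fold was 10.1, below the start of the counting interval. An antisense gene and a pseudogene are annotated on the opposite strand of EPHA4, and neither is in the table. By its log2 ratio EPHA4 stood at place 5 of the 10045 genes.

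A count of 0 in shRNA-Con was shared by 784 genes, with a median of 3 tags in the other library. EPHA4 held place 3 among them by tags, and EFNB1 with its 15 tags held place 21. The genes at 0 in shRNA-Con whose tags were nearest to those of EPHA4 were GDA (guanine deaminase) with 47 tags, METTL7B (a methyltransferase-like protein) with 44, GBP3 (a guanylate-binding GTPase) with 50 and CHST2 (a sulfotransferase of the Golgi) with 30. This likeness rests on 1 pair of libraries. RefSeq gives EPHA4 2 start sites, and the 250 bases before each are shown because EPHA4 had the largest ratio of the family. Capitals mark ACAATG, a core of SOX motifs, which was found once, 135 bases before the upstream start.
EPHA4 upstream start, chr2:221574203-221574452, minus strand: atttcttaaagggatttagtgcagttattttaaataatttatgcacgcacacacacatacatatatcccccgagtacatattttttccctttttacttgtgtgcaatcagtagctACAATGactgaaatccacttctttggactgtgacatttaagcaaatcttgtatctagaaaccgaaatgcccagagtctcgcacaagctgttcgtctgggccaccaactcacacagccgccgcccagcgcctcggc
EPHA4 downstream start, chr2:221572305-221572554, minus strand: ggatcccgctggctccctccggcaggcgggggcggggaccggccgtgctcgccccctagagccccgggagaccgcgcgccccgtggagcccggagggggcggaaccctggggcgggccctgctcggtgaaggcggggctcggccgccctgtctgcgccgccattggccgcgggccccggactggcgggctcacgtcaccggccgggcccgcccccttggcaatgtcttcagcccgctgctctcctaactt

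EPHB4 was the next receptor by tags in both libraries. It had 92 tags in shRNA-Con, or 39.9 CPM (32.2 to 49.0), and 61 in the shRNA-SOX2-labelled library, or 29.1 CPM (22.3 to 37.4). These intervals overlapped, and the interval of the ratio of 0.73 ran from 0.52 to 1.02, so that equal levels were within counting error. The annotated span of EPHB4 overlaps that of SLC12A9, a gene of the opposite strand, which had 80 tags in shRNA-Con against 178 in the other library. If the counting did not use strand, tags in the shared stretch could be counted for either of these 2 genes. How many tags lie there was not examined. A further RNA gene (class misc_RNA) is annotated on the same strand as EPHB4.

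EPHB2, which binds ephrin-Bs and is a guidance receptor, had the lowest ratio of the chosen receptors. It had 68 tags in shRNA-Con, or 29.5 CPM (22.9 to 37.4), and 28 in the shRNA-SOX2-labelled library, or 13.4 CPM (8.89 to 19.3). The intervals did not overlap. The log2 ratio was -1.14, with an interval of the ratio from 0.28 to 0.71, and 10.1% of all genes with at least 20 tags had a lower log2 ratio. An antisense gene is annotated here too, with a microRNA gene on each strand. The window before its start is shown as that of the 1 member lower by at least 2-fold, and it holds no capitals because none of the SOX or AP-1 letters searched was found.
EPHB2, chr1:22710588-22710837, plus strand: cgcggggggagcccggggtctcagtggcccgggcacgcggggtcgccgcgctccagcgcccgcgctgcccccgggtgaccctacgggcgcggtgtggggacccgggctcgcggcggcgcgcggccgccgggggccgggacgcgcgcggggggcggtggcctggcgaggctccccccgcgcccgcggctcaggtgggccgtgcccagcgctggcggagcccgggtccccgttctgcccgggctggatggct

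EPHB3, the remaining B receptor, had 9 tags in shRNA-Con against 14 in the shRNA-SOX2-labelled library. The ratio of 1.71 had an interval from 0.69 to 4.48, so that equal levels were within counting error. EPHA3, not among the chosen genes, had 0 and 4 tags in the same order. In bulk RNA a lower level in every cell and fewer cells with the mRNA cannot be told apart, for EPHA2 and EPHB2 as for the other genes.

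Among the ligands, EFNA1 (ephrin-A1, the main partner of EPHA2) was higher. It had 16 tags in shRNA-Con, or 6.94 CPM (3.97 to 11.3), and 36 in the shRNA-SOX2-labelled library, or 17.2 CPM (12.0 to 23.8). The intervals did not overlap. Its log2 ratio was 1.31, with an interval of the ratio from 1.34 to 4.78.

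EFNB1 (ephrin-B1, a transmembrane ligand of EphB receptors) had 0 tags in shRNA-Con against 15 in the shRNA-SOX2-labelled library, or 7.16 CPM (4.01 to 11.8). Against the limit of 3 tags it was 5.50-fold higher, and with the limit at 5 tags 3.30-fold. The counting interval of its ratio began at 3.95 and had no upper end. That interval likewise took the 0 as exact, and the fold of 3.30 lies below its start. With fewer than 20 tags EFNB1 stood outside the counts past 2-fold. EFNB2 (ephrin-B2, the partner of EPHB4 in blood vessels) had 8 tags in shRNA-Con against 5 in the other library. Its ratio was 0.69 (0.18 to 2.38), so that equal levels were within counting error. An antisense gene is annotated at EFNB2 as well, and a gene within an intron on the same strand as EFNB2. The windows before the starts of EFNA1 and EFNB1 are shown because both ligands were higher. Capitals in that of EFNA1 mark ACAAAG, a further core of SOX motifs, found once, 238 bases before the start, and the window of EFNB1 has none.
EFNA1, chr1:155127626-155127875, plus strand: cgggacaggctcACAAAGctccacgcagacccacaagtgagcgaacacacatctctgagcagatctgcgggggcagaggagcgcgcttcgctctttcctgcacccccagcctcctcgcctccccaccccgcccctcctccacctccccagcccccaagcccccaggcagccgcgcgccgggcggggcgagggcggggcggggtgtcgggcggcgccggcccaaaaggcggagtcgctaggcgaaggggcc
EFNB1, chrX:68828771-68829020, plus strand: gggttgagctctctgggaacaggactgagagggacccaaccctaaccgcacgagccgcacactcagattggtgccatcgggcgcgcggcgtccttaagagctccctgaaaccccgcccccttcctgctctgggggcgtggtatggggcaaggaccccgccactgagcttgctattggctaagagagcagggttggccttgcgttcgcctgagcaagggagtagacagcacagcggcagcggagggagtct

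The RefSeq windows (GRCh38.p14) are written 5′ to 3′ on the strand of the gene. All 8 members had a window, and there were 10 windows in all, those of the EPHB2 starts differing by 1 base. Motifs were searched on both strands, and no motif contains another. ACAATG was found in 1 of the 10 windows and in 5.62% of the 15435 windows of genes of the table. ACAAAG was found in 1 of 10 and in 10.4% of all. The AP-1 letters TGANTCA were found in 0 of 10 and in 4.55% of all. For the SP1 letters GGGCGG the numbers were 10 of 10 and 62.0%. The upstream window of EPHA4 had a GC content of 43.2% and its downstream window one of 78%. That of EPHB2 was 84.8%, beside a median of 64.4% over all windows. These matches describe the letters only.

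The ephrin-As outside the chosen genes differed in direction. EFNA5 had the most tags of all ephrins in both libraries, with 128 in shRNA-Con (55.6 CPM, 46.3 to 66.1) and 70 in the shRNA-SOX2-labelled library (33.4 CPM, 26.1 to 42.2). Its intervals did not overlap and its log2 ratio was -0.73. EFNA4 had 34 and 50 tags in the same order, a ratio of 1.62 (1.03 to 2.58). EFNA3 had 11 and 7 tags and EFNB3 had 3 and 4, with equal levels within counting error for both. EFNA4 and EFNA3 are both overlapped by an annotated gene on their own strand, so that their tags are uncertain.

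The sums of the family depend on which genes are counted. The 5 chosen receptors together had 480 tags in shRNA-Con against 324 in the shRNA-SOX2-labelled library, a ratio of 0.74 (0.64 to 0.86). The 3 chosen ephrins together had 24 and 56 tags, a ratio of 2.57 (1.57 to 4.33). With all 7 listed ephrins the sums were 200 and 187, a ratio of 1.03 (0.84 to 1.26), while all 6 listed receptors gave 480 and 328. Ephrins thus made up 4.76% of the tags of the chosen genes in shRNA-Con (3.07% to 7.003%) and 14.7% in the other library (11.3% to 18.7%). Over all 13 listed genes of the family the shares were 29.4% (26.0% to 33.0%) and 36.3% (32.1% to 40.6%).

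Shares within the receptors do not depend on how the libraries are scaled. EPHA2 made up 64.8% of the tags of the 5 receptors in shRNA-Con (60.3% to 69.1%) and 54.0% in the shRNA-SOX2-labelled library (48.4% to 59.5%). Without EPHA4 in the sum the latter share was 62.9%, so that most of the difference lay in the addition of EPHA4. EPHA4 itself made up 14.2% there (10.6% to 18.5%) and 0 of 480 tags in shRNA-Con. EPHB2 went from 14.2% (11.2% to 17.6%) to 8.64% (5.82% to 12.2%). EPHB4 held 19.2% and 18.8%.

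Known partners were also set against each other within a library. In shRNA-Con there were 19.4 tags of EPHA2 for each tag of EFNA1 (11.8 to 34.4), and in the shRNA-SOX2-labelled library there were 4.86 (3.38 to 7.17). These intervals did not overlap. The difference depended on the ephrin taken. EFNA5, which also had fewer tags in the latter library, gave 2.43 (1.97 to 3.01) in shRNA-Con and 2.50 (1.88 to 3.35) in the other. All 4 listed ephrin-As together gave 1.65 (1.37 to 1.98) and 1.07 (0.86 to 1.34), again without overlap. This sum holds EFNA3 and EFNA4, whose tags are uncertain. EPHB4 stood to EFNB2 at 11.5 (5.60 to 27.4) and 12.2 (4.95 to 38.9), which overlapped almost fully.

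The deposited annotation places all 8 members in the plasma membrane as integral proteins, a term held by 489 genes of the table. Around the receptors, a list of 75 adaptors, kinases, exchange factors and proteases of Eph signalling had 71 genes in the table and 58 with at least 20 tags. Of these 58, 4 (6.90%) were higher and 8 (13.8%) lower by at least 2-fold, beside 10.4% and 13.0% of all genes with that many tags. Their median log2 ratio was -0.12, beside -0.10 over all genes. The list was described by these counts alone and was not tested.

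Among the exchange factors and GTPase regulators, NGEF (ephexin-1, an exchange factor that binds EphA receptors) had 22 tags in shRNA-Con against 0 in the shRNA-SOX2-labelled library. It was 6.66-fold lower against the limit of 3 tags and 3.998-fold with the limit at 5 tags. The counting interval of the NGEF ratio ran from 0 to 0.20, with the 0 taken as exact. The ratio with the limit at 5 tags, 0.25, lies above its upper end. CHN1 (chimaerin 1, a Rac-inactivating protein that acts after EPHA4 in neurons) had 64 and 12 tags, a ratio of 0.21 (0.10 to 0.39). RASA1, a Ras-inactivating protein that binds EphB2, had 148 and 64 tags, a ratio of 0.48 (0.35 to 0.64). VAV3, an exchange factor recruited by Eph receptors, had 15 and 33 tags, a ratio of 2.42 (1.28 to 4.80). RGS3, whose PDZ form binds the tail of ephrin-Bs, had 33 and 123 tags, a ratio of 4.10 (2.77 to 6.22).

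Among the adaptors, kinases and proteases, CRKL, an adaptor of phosphotyrosine signalling, had 82 tags in shRNA-Con against 19 in the shRNA-SOX2-labelled library, a ratio of 0.25 (0.15 to 0.42). GRB10, an adaptor of receptor kinases, had 219 and 75 tags, a ratio of 0.38 (0.29 to 0.49). YES1, a kinase of the SRC family, had 107 and 43 tags, a ratio of 0.44 (0.30 to 0.64). PIK3R1, the regulatory subunit of PI3-kinase, went the other way with 22 and 58 tags, a ratio of 2.90 (1.75 to 4.98). MMP2, a matrix protease, had 22 and 42 tags, a ratio of 2.10 (1.23 to 3.70).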

How the data were processed

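Tags of A549 cells with shRNA-SOX2 or shRNA-Con, 1 library each, were used as the authors deposited them, as raw counts per Entrez Gene ID. The authors' deposited TPM values are per 1000000 clean tags, with 0 tags written as 0.01, and served here only to derive the clean tags (3456234 and 3516266). The labels name hg19, and the aligner is not given in the sources used here. Columns of the authors' fold changes and p-values were not used.

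Counts were divided by the total of gene tags, and counts under 3 were set to 3 for ratios. Single counts have exact Poisson intervals, and ratios and shares have Clopper-Pearson intervals, at 95%. These intervals use the counts as listed, without the limit of 3 tags. Genes past 2-fold were counted among those with at least 20 tags in both libraries together. No test was run, since each group has 1 library. Alternatives were TMM factors (edgeR 4.0.16), median-ratio size factors (DESeq2 1.42.0), clean tags, 0.5 added tags, other minimums and a fold of 1.5. Python 3.11.15, scipy 1.17.1 and R 4.3.3 were used. The ratios and their intervals were tested on simulated Poisson counts, for genes with at least 100 tags in both libraries together. Lower counts were not covered. Of the 13137 IDs 13086 matched RefSeq, whose GRCh38.p14 promoter windows were cut to 250 bases. Overlapping genes come from GENCODE release 29.

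The members and lists were chosen with earlier results of these data known. The genes named are the members, the other listed family genes, up to 6 genes in each direction with the largest ratio past 2-fold from each list, the 4 genes nearest EPHA4 among those at 0 in shRNA-Con, and SOX2. Cell type markers, and SLC12A9, which overlaps EPHB4, are named outside that rule. Genes of the table at 20 tags or more numbered 10045. Protein sequences were not used here.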

Additional observations from a re-analysis of the deposited data

How the results depend on the processing

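No paired analysis was possible because only 1 library was made of each group, which also means that none could be left out. The direction of all 8 members held in all 32 values under the other scalings and with 0.5 tags added. The other scalings shift every log2 ratio alike, by 0.073, 0.070 and -0.11. The member nearest to equal levels, EPHB4, stood at -0.45, so that none of these shifts could change a sign. For EPHB3, EPHB4 and EFNB2 equal levels were within counting error. With a count of 0 taken as up to 5 tags, chosen after seeing the data, the log2 ratio was 3.34 for EPHA4 and 1.72 for EFNB1. With 0.5 tags added the values were 6.68 and 5.09, beside 4.08 and 2.46 with the limit of 3 tags. The size of both ratios thus depends on what stands in for the 0.

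The counts of members past 2-fold, 2 higher and 1 lower, held under the 3 other scalings. At least 100 tags left EPHA2 and EPHB4 alone, with 0 higher and 0 lower and a median of -0.57. A fold of 1.5 gave 3 higher and 2 lower, and no filter on tags, chosen after seeing the data for these counts, 3 and 1. Over all genes, 1040 higher and 1306 lower became 471 and 713 with at least 100 tags and 2060 and 2667 with a fold of 1.5. With no filter on tags they were 1449 and 1585. They were 864 and 1596 with clean tags, 1171 and 1155 with TMM factors and 1162 and 1164 with size factors of DESeq2. The median of all genes, -0.10, was -0.22 with clean tags, -0.13 with at least 100 tags, -0.082 with no filter, -0.030 with TMM factors and -0.032 with size factors of DESeq2.

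For Eph signalling, the 8 lower genes became 5 with TMM factors, and at least 100 tags left 1 higher and 5 lower. Its median was -0.24 with clean tags. Of the other receptor tyrosine kinases, 1 higher became 0 with clean tags, and at least 100 tags left 0 higher and 2 lower. Fewer genes tested or a shift of all ratios gives these changes. Shares of genes past 2-fold were not computed at the other settings, so nothing is read from these counts. Depth limits EFNB2, EPHB3 and EFNB1, with 13 to 23 tags in all.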

Other observations

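Of 44 receptor tyrosine kinases outside the Eph family, 27 were in the table and 13 had at least 20 tags. Their median log2 ratio, shRNA-SOX2-labelled library over shRNA-Con, was -0.56, with 1 higher and 4 lower by at least 2-fold. Over all 10045 genes the median was -0.10, with 10.4% higher and 13.0% lower. MET, the receptor of hepatocyte growth factor, had 420 tags in shRNA-Con against 144 in the shRNA-SOX2-labelled library, a ratio of 0.38 (0.31 to 0.46). EGFR had 108 and 24 tags, a ratio of 0.24 (0.15 to 0.38). NTRK3, a neurotrophin receptor, had 16 and 4 tags and ROR1 had 16 and 7, the latter with an interval of the ratio from 0.17 to 1.24. MST1R, a receptor related to MET, had 22 and 40 tags, a ratio of 2.001 (1.16 to 3.53), and was under 2-fold with clean tags. These are values of 1 pair of libraries and were not tested.

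The genes EFNA4, EFNA3 and EFNA1 follow each other on chromosome 1. Their tags in shRNA-Con and in the shRNA-SOX2-labelled library were 34 and 50, 11 and 7, and 16 and 36 in that order.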
